A study of Bos taurus with 138 samples.

Results

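The 10 libraries described here hold the RNA of the lightest fractions and of the monosome fractions of metaphase II (MII) oocytes, 10 of the 138 libraries of the series. Lysates of bovine (Bos taurus) oocytes were spun through sucrose gradients, and 10 fractions were collected from the top (F1) to the bottom (F10). The free RNA of a gradient was taken as the sum of F1 and F2, and the monosome RNA as the sum of F3, F4 and F5, in gradients A and B. That gave 4 free RNA libraries and 6 monosome libraries, and after summing 2 free pools and 2 monosome pools. All oocytes came from slaughterhouse ovaries, were matured in vitro inside their cumulus cells and were stripped of these cells. Cycloheximide, which holds ribosomes on mRNA, was added to the culture before collection, and the zona pellucida was removed after that. Each gradient was loaded with a pool of many oocytes, so no value belongs to 1 animal. The genotype, breed and age of the oocyte donors are not given in the sources used here. GV oocytes (immature, taken before maturation) and later embryos, separated in the same way in 2 gradients a stage, are used for comparison, and the embryos were made in vitro with semen of a Holstein bull.

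A sucrose gradient sorts complexes by mass. RNA that carries no ribosome, alone or with bound proteins, stays near the top, an mRNA with a single ribosome (a monosome) moves further, and an mRNA with many ribosomes (a polysome) moves furthest. The MII oocyte is transcriptionally silent and lives on mRNA stored during growth, of which some is translated during maturation and some is kept unread for the embryo. The levels below are CPM (counts scaled to the same total in every library), so they give the share of a fraction that a gene took, not the amount of its RNA in the oocyte. In pooled samples of this kind, fewer cells of a type and less RNA per cell cannot be told apart, and the amount of RNA in each fraction was not analysed here.

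The 10 libraries held between 8720380 and 12955351 counts, with 11638 to 13961 genes detected, and Pearson's r between the 2 gradients of a fraction lay between 0.822 and 0.956 over 11054 genes. F10 of gradient B stood apart from the other MII libraries (r = 0.614 with F10 of gradient A). It is in neither compared pool, but it enters through the gene filter, the scaling and the shared estimate of spread. The 13 oocyte markers summed to 31900 to 53100 CPM in F1 and F2 and to 38400 to 64400 CPM in F3 to F5, and none was at 0. The 16 cumulus and granulosa markers summed to 95.7 to 163 CPM in free RNA and 221 to 355 CPM in monosomes. Of these, 1 was at 0 and 2 had at most 3 counts in all 10 libraries. The 10 blood and stroma markers summed to 57.2 to 269 CPM and 21.3 to 36.7 CPM, with 2 at 0 and 4 at no more than 3 counts.

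Free RNA and monosomes held different messages. Genes for ribosomal proteins, for nuclear-encoded subunits of the respiratory chain and ATP synthase, and for the proteins encoded by mitochondrial DNA took a larger share of F1 and F2. Some genes for the folding chaperonin, nucleolar ribosome assembly factors, tRNA synthetases and DNA repair proteins took a larger share of F3 to F5. Of 13369 genes tested, 531 (3.97%) differed, of which 323 were higher in free RNA (2.42%) and 208 were higher in monosomes (1.56%), at an adjusted p below 0.05 and a fold above 2 (edgeR quasi-likelihood test with Benjamini-Hochberg adjustment). The median log2 fold change was 2.43 over the 323 genes, -2.37 over the 208 genes and 0 over all genes tested. A change above 8-fold was seen in 71 of the 323 and 34 of the 208. Both free pools lay above both monosome pools for 3618 genes (27.1%) and below them for 3964 genes (29.7%).

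These counts rest on 2 gradients, and the p-values measure only the spread between them. With the gradient as a block, since fractions of a letter come from the same lysate, 508 and 319 genes passed. Without F10 of gradient B, 449 and 332 passed. Scaling to library totals alone, without TMM factors, moved the median of all genes to -0.38 and the split to 218 and 532, so that 29.1% of the calls were for free RNA in place of 60.8%. The changes given below are relative to the median gene. When a pool was left out, so that 1 pool was set against 2, few calls were made: 7 and 0 without free pool A, 16 and 0 without free pool B, 0 and 0 without monosome pool A, and 25 and 13 without monosome pool B. At an unadjusted p below 0.05, 1130, 1093 and 710 genes were higher in monosomes in the first 3 of these fits, and 605 were higher in free RNA without monosome pool A.

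**Figure D1:**
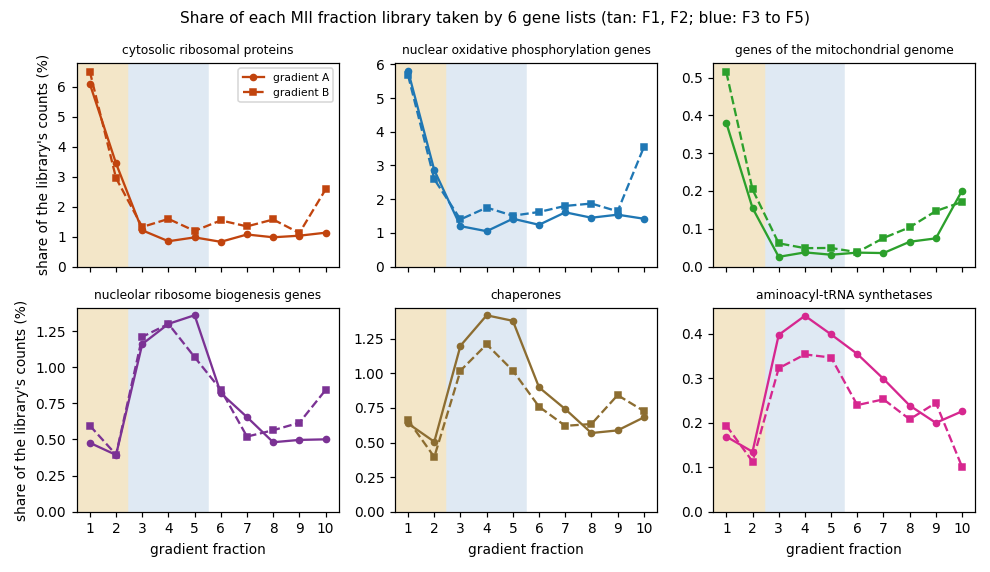
Share of the counts of each MII library (y axis, percent) taken by 6 gene lists in fractions F1 to F10 (x axis), with circles for gradient A and squares for gradient B. Cytosolic ribosomal proteins took 6.09% and 6.5% of F1 and 0.845% to 1.59% of F3 to F5, while nucleolar ribosome biogenesis genes took 0.393% to 0.596% of F1 and F2 and 1.07% to 1.36% of F3 to F5.

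Ribosomal proteins, the building blocks of the cytosolic ribosome, formed the largest group in free RNA. Of 78 genes tested, 53 were higher in free RNA, none was higher in monosomes and 25 did not pass, with a median log2 fold change of 2.39 (2.00 on library totals). Together they took 6.09% and 6.5% of the counts of F1 in gradients A and B, 3.44% and 2.95% of F2, and 0.845% to 1.59% of the 6 monosome libraries. The shares of the 2 pools did not overlap, and in F8 to F10 the group took 0.977% to 2.57%, the highest of these in F10 of gradient B. RPL36, of the large subunit, stood at 7141 and 6522 CPM in F1 of gradients A and B, at 1315 and 953 in F2, and between 163 and 332 CPM (median 208) in the 6 monosome libraries. All 4 free libraries lay above all 6 monosome libraries, and the log2 fold change was 4.25 ± 0.529 (SE; edgeR adjusted p = 0.0119). RPL32 fell from 2633 and 2326 CPM in F1 through 938 and 873 in F2 to 73.4 to 153 CPM (median 107) in monosomes (4.02 ± 0.448, edgeR adjusted p = 0.0116). RPLP2, an acidic protein of the ribosomal stalk, was at 827 and 896 CPM in F1, 157 and 152 in F2, and 18.7 to 56.1 CPM (median 27.2) in monosomes. RPL38 took a smaller share, 156 and 168 CPM in F1, 32.0 and 34.1 in F2 and 2.43 to 11.5 CPM (median 4.79) in monosomes.

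The group was not uniform. Large subunit genes had 26 of 45 past the threshold and a median of 2.01, and small subunit genes 27 of 33 and a median of 2.58. RPL5 and RPL4 had the lowest log2 fold changes, -0.51 ± 0.455 (edgeR adjusted p = 0.615) and -0.44 ± 0.386 (edgeR adjusted p = 0.608). RPL4 stood at 11.7 and 124 CPM in F1, 192 and 248 in F2, and 116 to 340 CPM (median 194) in monosomes, so the groups overlapped. RPS6, a small subunit protein known as a target of growth signaling, stood at 91.5 and 90.7 CPM in F1, 367 and 316 in F2, and 138 to 262 CPM (median 224) in monosomes. RPLP0, the base of the stalk, passed the threshold (1.65 ± 0.334, edgeR adjusted p = 0.0277) with 1075 and 802 CPM in F1, 2544 and 2826 in F2, and 290 to 1036 CPM (median 570) in monosomes. Ribosomal protein genes have many processed copies in mammalian genomes, and how the counting divided reads among such copies is not given in the sources used here, so the level of a single gene of this family is uncertain.

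Oxidative phosphorylation makes ATP in mitochondria with subunits from both genomes, most of them from nuclear genes and a few from mitochondrial DNA. Mitochondrial mRNAs are translated inside the organelle by its own ribosomes, not by the cytosolic ribosomes that the gradient resolves. All 13 protein-coding genes of the mitochondrial genome were tested, and in each of them both free pools lay above both monosome pools (27.1% of all genes tested). Of the 13, 7 passed the threshold (53.8%), with a median of 2.96, and 12 passed with the gradient as a block. They took 0.38% and 0.514% of the counts of F1, 0.155% and 0.204% of F2, and 0.0258% to 0.0616% of the monosome libraries. In F8 to F10, with the outlying F10 of gradient B, they took 0.0657% to 0.201%, above all monosome libraries. ND3, a subunit of complex I, stood at 129 and 146 CPM in F1, 36.4 and 23.1 in F2, and 0.899 to 3 CPM (median 2.51) in monosomes (5.28 ± 0.62, edgeR adjusted p = 0.0119). COX3, of cytochrome oxidase, was far more abundant, with 2648 and 2745 CPM in F1, 1137 and 1293 in F2, and 82.8 to 225 CPM (median 118) in monosomes (3.95 ± 0.42, edgeR adjusted p = 0.0116). ATP8 (13.2, 37.3, 6.24 and 18.5 CPM in the 4 free libraries, 0.314 to 1.56 in monosomes) and ATP6 (220, 416, 133 and 331 CPM, 11.1 to 35.9 in monosomes) overlap on the mitochondrial DNA, so reads of one can be counted for the other. COX1 had the smallest change of the 13, 1.92 ± 0.423 (edgeR adjusted p = 0.0351). The 6 that did not pass were ND1, ND2, ND4, ND4L, ND5 and ND6, with log2 fold changes of 1.96 to 3.64.

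Among nuclear oxidative phosphorylation genes, 30 of 77 were higher in free RNA, 2 were higher in monosomes and 45 did not pass, with a median of 1.78. With the gradient as a block, 51 were higher in free RNA. Their summed share was 5.80% and 5.67% of F1, 2.86% and 2.59% of F2, and 1.05% to 1.75% of the monosome libraries. In F8 to F10, with the outlying F10 of gradient B, it was 1.42% to 3.54%, a range that held the F2 values. ATP5F1E, the epsilon subunit of the ATP synthase rotor, was among the most abundant messages of F1, at 13590 and 12850 CPM. In libraries of whole MII oocytes, sequenced and scaled apart, ATP5F1E had a mean of 131.5 CPM, below every gradient library of MII. ATP5F1E stood at 2908 and 2907 CPM in F2 and at 176 to 509 CPM (median 308) in monosomes (4.81 ± 0.633, edgeR adjusted p = 0.0119). COX6B1, of cytochrome oxidase, had 3105 and 3361 CPM in F1, 697 and 796 in F2, and 52.8 to 172 CPM (median 97.8) in monosomes. ATP5MF, a membrane subunit of ATP synthase, had 1669 and 1832 CPM in F1, 352 and 301 in F2, and 38.8 to 110 CPM (median 56.5) in monosomes. NDUFA3, an accessory subunit of complex I, had 390 and 232 CPM in F1, 72.2 and 42.3 in F2, and 8.08 to 16.4 CPM (median 9.98) in monosomes. These 3 genes lay above all 6 monosome libraries in every free library, with log2 fold changes of 4.41, 4.16 and 4.17.

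By complex, 16 of 37 complex I genes were higher in free RNA (median 2.03), 8 of 17 ATP synthase genes (1.75), 3 of 9 complex III genes (0.85), 3 of 9 complex IV genes (1.98) and none of 4 complex II genes (0.44). This division was made after the values were seen, and the list does not hold every subunit. ATP5MD of ATP synthase and COX7A1 of complex IV, which are not in it, were also higher in free RNA (3.34 and 3.29). The 2 genes that were higher in monosomes were NDUFS1 and ATP5F1A. NDUFS1, an iron-sulfur subunit of complex I, stood at 2.87 and 3.91 CPM in F1, 8.16 and 8.77 in F2, and 24.6 to 57.1 CPM (median 32.8) in monosomes (-2.65 ± 0.477, edgeR adjusted p = 0.0187). ATP5F1A, the alpha subunit in the head of ATP synthase, stood at 105 and 111 CPM in F1, 72.9 and 79.9 in F2, and 282 to 429 CPM (median 363) in monosomes (-1.88 ± 0.354, edgeR adjusted p = 0.0217). Of 2 subunits of the same enzyme, ATP5F1E took a larger share of free RNA and ATP5F1A a larger share of monosomes.

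Mitochondrial ribosomal proteins, which build the ribosome of the organelle, were less displaced than the cytosolic ones. Of 78 genes tested, 8 were higher in free RNA (10.3%), none in monosomes, and the median was 0.63 (0.26 on library totals). The gradient as a block gave 15 in free RNA, and library totals gave 2 in free RNA and 1 in monosomes. MRPL21 had 1285 and 1265 CPM in F1, 767 and 788 in F2, and 92.9 to 300.1 CPM (median 182) in monosomes. MRPL57 was at 133 and 103 CPM in F1, 31.9 and 34.9 in F2, and 6.98 to 15.2 CPM (median 9.34) in monosomes. MRPL23 and MRPS6 changed by 2.66 and 1.97.

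**Figure D2:**
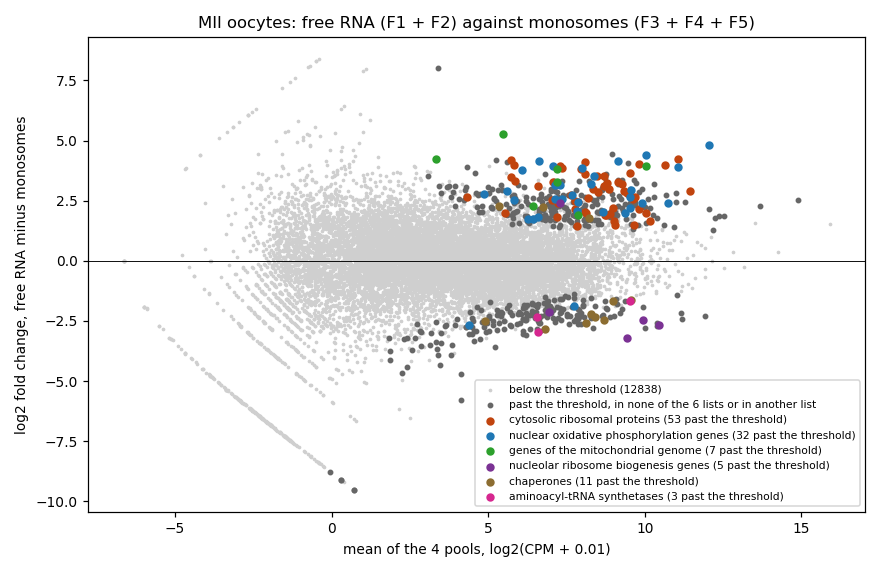
Log2 fold change of free RNA over monosomes (y axis) against the mean level of the 4 pools (x axis, log2 of CPM plus 0.01) for 13369 genes, 1 point per gene. Light grey points did not pass the threshold, dark grey ones did, and colors mark the genes of 6 lists past it, among them 53 ribosomal protein genes, all above 0, and 11 chaperones, of which 8 lie below it.

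Across the other gene lists the share past the threshold was smaller, and several lists had members on both sides. All genes tested had 2.42% higher in free RNA and 1.56% higher in monosomes, and some list shares were near these. On library totals, without TMM, the number higher in monosomes was 7 in place of 2 for the spliceosome, 8 in place of 4 for translation factors, 8 in place of 3 for the nuclear pore, 8 in place of 5 for spindle and kinetochore genes and 13 in place of 3 for zinc finger genes. The machinery that brings secretory proteins into the endoplasmic reticulum had 6 of 50 genes higher in free RNA and none in monosomes (median 0.50). TMEM258, a small subunit of the oligosaccharyltransferase, stood at 1930 and 1284 CPM in F1, 318 and 190 in F2, and 28.3 to 75.3 CPM (median 40.8) in monosomes (4.44 ± 0.488, edgeR adjusted p = 0.0116). SEC61B, a small subunit of the translocation channel, changed by 2.56, SSR4, of the translocon-associated complex, by 2.47, and KRTCAP2, of the oligosaccharyltransferase, by 2.29. Of 65 spliceosomal genes, 6 were higher in free RNA and 2 in monosomes. SNRPD2, a core Sm protein, had 1429 and 2559 CPM in F1, 542 and 719 in F2, and 39.2 to 145 CPM (median 79.5) in monosomes (4.06 ± 0.699, edgeR adjusted p = 0.016). SNRPG and SNRPF, also of the Sm ring, changed by 2.52 and 2.39. PRPF4, of the U4/U6 particle, was higher in monosomes, with 105 and 82.1 CPM in F1, 76.9 and 59.0 in F2, and 472 to 710 CPM (median 573) in monosomes. The median of the whole spliceosomal list was 0.20, and it was -0.18 on library totals.

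Of 22 histone genes tested, 4 were higher in free RNA and none in monosomes, with a median of 1.25. The summed share of the list overlapped between the pools, at 0.278% to 0.476% of F1 and F2 and 0.232% to 0.425% of F3 to F5. In F8 to F10 it was 0.46% to 0.845%. H2BC18 had 641 and 661 CPM in F1, 237 and 155 in F2, and 37.9 to 51.1 CPM (median 46.4) in monosomes (3.32 ± 0.505, edgeR adjusted p = 0.0128). H1-2, a linker histone, had 852 and 901 CPM in F1, 1016 and 630 in F2, and 106 to 369 CPM (median 188) in monosomes. HIST1H2AC and H2AC21 changed by 2.63 and 2.41. The list does not hold every histone gene, and H4, H2B and H3C13, which are not in it, were also higher in free RNA (2.59, 2.98 and 2.71). Histone genes are near-identical copies of each other, so the values of single members are uncertain.

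Antioxidant enzymes had 3 of 39 genes higher in free RNA (GPX4, which reduces lipid peroxides, GLRX and GSTP1) and none in monosomes. GPX4 stood at 926 and 1498 CPM in F1, 771 and 1285 in F2, and 95.8 to 378 CPM (median 222) in monosomes (2.37 ± 0.576, edgeR adjusted p = 0.0497). GLRX and GSTP1 changed by 2.31 and 2.08. The cytoskeletal list had 4 of 51 genes in free RNA, among them TMSB10, a small protein that binds actin monomers, and DYNLRB1 and DYNLL1, light chains of dynein. Its 1 gene in monosomes was TPM3, a tropomyosin of actin filaments, at 329 and 582 CPM in F1, 215 and 262 in F2, and 1967 to 3081 CPM (median 2284) in monosomes. TMSB10 stood at 1276 and 2072 CPM in F1, 835 and 978 in F2, and 92.0 to 251 CPM (median 167) in monosomes.

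The proteasome had 4 of 49 genes in free RNA and 1 in monosomes, with a median of -0.06. PSMB3, a subunit of the core, had 3325 and 4090 CPM in F1, 2686 and 4005 in F2, and 315 to 1029 CPM (median 659) in monosomes. PSMG4, a small assembly chaperone of the core, changed by 3.60 and SEM1, a small subunit of the cap, by 2.20. Core subunits had a median of 0.26 and cap subunits one of -0.87, a division made after the values were seen. Of 87 genes for RNA polymerase II, its general factors and Mediator, 5 were in free RNA, with POLR2L, TAF10 and GTF2H5 at 2.74, 2.41 and 2.35, and 1, MED12, in monosomes at -3.22. Of 76 translation factors, EIF1 and EIF3K were higher in free RNA (2.22 and 2.46) and 4 were higher in monosomes. These were 2.63% and 5.26% of the list, against 2.42% and 1.56% of all genes tested. EIF4B, which assists the helicase that unwinds the 5' end of mRNA, stood at 31.7 and 1.74 CPM in F1, 15.2 and 13.5 in F2, and 73.1 to 169 CPM (median 145) in monosomes (-3.04 ± 0.739, edgeR adjusted p = 0.0498). EIF2AK1, a kinase that turns initiation down, was at -2.24. Of 58 RNA decay factors, LSM7 was in free RNA (2.62, 1.72% of the list). EXOSC9 and EXOSC10, of the exosome, were in monosomes (-2.25 and -2.23, 3.45%). Of 72 ubiquitin ligase genes, RBX1 was in free RNA (2.06) and FBXO42 in monosomes (-2.39), each 1.39% of the list. The RAB list had 1 of 54 in free RNA (1.85%), RAB27B (2.51). Of the shares of these last 3 lists, those in free RNA were below that of all genes.

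In a few other lists more genes were higher in monosomes than in free RNA, each a small share of its list. Chaperones had 8 of 85 genes higher in monosomes and 3 higher in free RNA, with a median of -0.38. On library totals, without TMM, 17 were higher in monosomes. The CCT chaperonin folds actin and tubulin, and 5 of its 9 measured genes were higher in monosomes and none in free RNA. Of the 9, 2 had a positive log2 fold change, the highest 1.73, and the median was -1.8. This group was also cut from its list after the values were seen. TCP1 stood at 50.5 and 90.6 CPM in F1, 98.1 and 74.2 in F2, and 375 to 591 CPM (median 505) in monosomes (-2.60 ± 0.343, edgeR adjusted p = 0.0119). CCT3 stood at 96.3 and 80.8 CPM in F1, 156 and 202 in F2, and 583 to 1049 CPM (median 630) in monosomes. Neither gene overlapped between the pools in any library. DNAJC11 and DNAJA4, co-chaperones of HSP70, were at -2.83 and -2.52.

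Nucleolar factors process ribosomal RNA and assemble the subunits of the ribosome. They had 4 of 77 genes higher in monosomes and 1 higher in free RNA, with a median of -0.59, and took 0.393% to 0.596% of F1 and F2 against 1.07% to 1.36% of F3 to F5. Library totals gave 9 in monosomes, and the gradient as a block 3 in free RNA. DKC1, the pseudouridine synthase of small nucleolar particles, stood at 96.2 and 210 CPM in F1, 87.6 and 138 in F2, and 985 to 1544 CPM (median 1310) in monosomes (-3.22 ± 0.44, edgeR adjusted p = 0.0124). NAT10, which acetylates ribosomal RNA, had 305 and 470 CPM in F1, 357 and 408 in F2, and 2034 to 3141 CPM (median 2484) in monosomes. NOP56 was at -2.45. NOP10, a small partner of DKC1 in the same particle, was higher in free RNA, with 367 and 354 CPM in F1, 169 and 157 in F2, and 30.6 to 79.3 CPM (median 52.3) in monosomes (2.39 ± 0.487, edgeR adjusted p = 0.0281).

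The tRNA synthetases had 3 of 40 genes in monosomes and none in free RNA (median -0.51), and library totals gave 8 in monosomes. NARS1 stood at 23.2 and 47.9 CPM in F1, 7.03 and 6.40 in F2, and 125 to 254 CPM (median 159) in monosomes. GARS1 and WARS1 were at -2.33 and -1.66. DNA repair genes had 5 of 84 in monosomes and none in free RNA (median -0.50). XRCC6, which binds broken DNA ends, had 39.6 and 27.4 CPM in F1, 17.1 and 8.91 in F2, and 152 to 223 CPM (median 186) in monosomes. RNF8 and ATRIP were at -2.64 and -2.99. Nuclear pore and transport genes had 3 of 56 in monosomes, with XPO7, NUP50 and NUP93 at -3.43, -2.89 and -2.19, and none in free RNA.

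Of 54 histone lysine and DNA methylation enzymes, 0 were in free RNA and 2 in monosomes (3.7%, median 0.01). These were KDM5A (a histone demethylase) and SETDB1 (a histone methyltransferase), at -2.37 and -2.05. Of 38 histone acetylation and deacetylation enzymes, 0 were in free RNA and 1 in monosomes (2.63%, median -0.09), KAT7 (a histone acetyltransferase) at -2.56. All genes tested had 2.42% in free RNA and 1.56% in monosomes. The gradient as a block gave 1 methylation enzyme in free RNA. Of 267 zinc finger genes, 2 were higher in free RNA (ZNF593, 2.25, and ZNF706, 1.91) and 3 in monosomes, with ZNF304 at 0 and 2.72 CPM in F1, 7.6 and 14.5 in F2, and 36.4 to 105 CPM (median 71.0) in monosomes. Lysosomal genes had 4 of 62 in free RNA and 6 in monosomes. ATP6V1F, a small subunit of the proton pump, was at 2.97, while the hydrolases CTSC, LIPA and ASAH1 were at -2.62, -2.31 and -2.75. In central carbon metabolism GAPDH was higher in free RNA (1.85) and LDHA and PGAM1 higher in monosomes (-1.91 and -1.61). Of 47 genes for very large signaling and cytoskeletal proteins, SYNE2 was in monosomes (-1.55), none was in free RNA, and the median was -0.05.

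**Figure D3:**
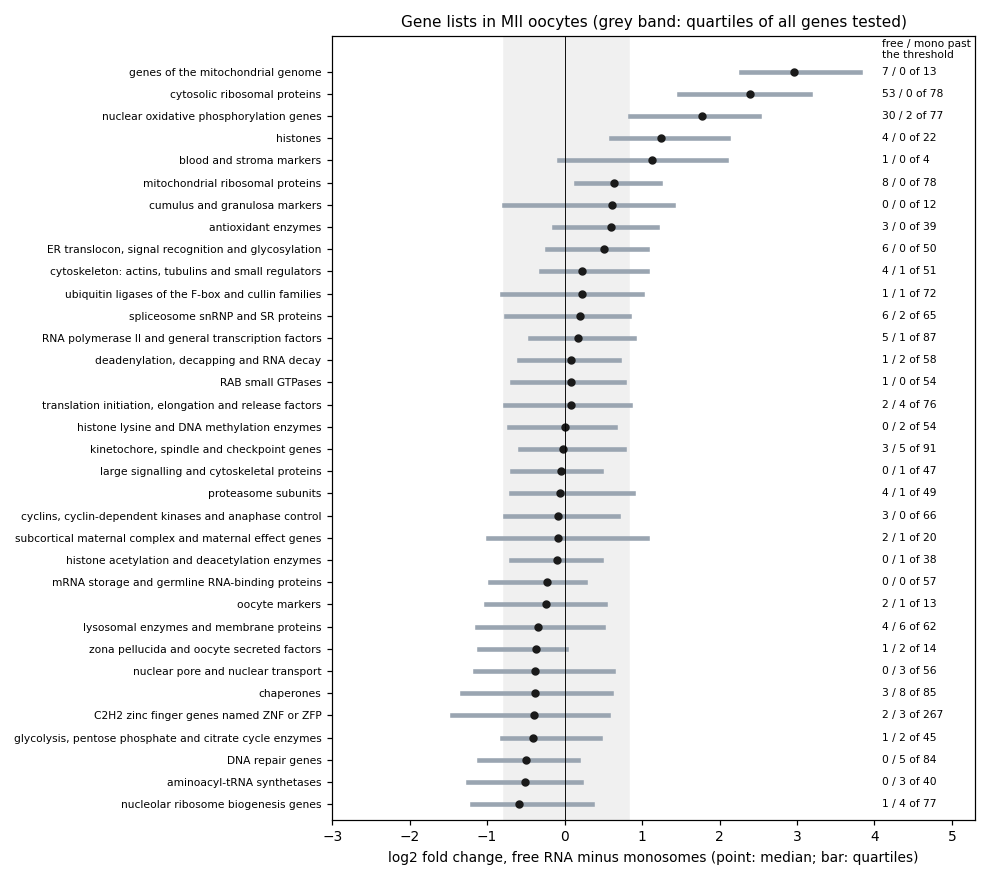
Median log2 fold change of free RNA over monosomes (x axis, points) with quartiles (bars) for 34 gene lists, and the quartiles of all 13369 genes as a grey band. The numbers at the right give members past the threshold in free RNA and in monosomes of those tested, and the genes of the mitochondrial genome (2.96) and the cytosolic ribosomal proteins (2.39) have the highest medians.

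Among messages of the oocyte itself, calls in free RNA depended on the scaling. On library totals, without TMM, MOS (0.89), OOEP (1.02) and TRIM28 (1.16) no longer passed (edgeR adjusted p = 0.0963, 0.0953 and 0.111). The 13 oocyte markers then had 0 in free RNA and 4 in monosomes in place of 2 and 1, and the 20 subcortical and maternal effect genes 0 and 3 in place of 2 and 1. MOS, the kinase that holds the egg in metaphase, stood at 4945 and 4201 CPM in F1, 9933 and 7466 in F2, and 2045 to 3845 CPM (median 2760) in monosomes (1.26 ± 0.292, edgeR adjusted p = 0.042). OOEP, of the subcortical maternal complex that embryos need for cleavage, stood at 4230 and 2172 CPM in F1, 2917 and 2132 in F2, and 711 to 1681 CPM (median 1138) in monosomes. CKS2, a small subunit of cyclin-dependent kinases, had 519 and 343 CPM in F1, 279 and 156 in F2, and 38.4 to 109 CPM (median 42.6) in monosomes (2.72 ± 0.4, edgeR adjusted p = 0.0128). None of these 3 genes overlapped between free and monosome libraries. NLRP9, a maternal gene of the NLRP family, was higher in monosomes, with 432 and 502 CPM in F1, 343 and 245 in F2, and 1006 to 4254 CPM (median 2446) in monosomes. ZP2, a zona pellucida glycoprotein, had 709 and 904 CPM in F1, 1437 and 1650 in F2, and 2327 to 4338 CPM (median 3098) in monosomes (-1.42 ± 0.319, edgeR adjusted p = 0.0371). TRIM28, a repressor of transposons, was at 1.56 with F1 and F2 pooled and at -0.15 with F2 alone as free RNA.

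Spindle and kinetochore genes had 3 of 91 in free RNA and 5 in monosomes (median -0.02), with CENPI, CENPO, TUBGCP4 and RACGAP1 at -3.02, -2.51, -2.32 and -2.31. Of 66 cyclin and anaphase genes, CKS2, PTTG1 and MOS were higher in free RNA and none was called for monosomes. In the same list 6 and 3 were called with the gradient as a block, 6 and 3 without F10 of gradient B, and 2 and 3 on library totals. None of 57 genes for mRNA storage and germline RNA binding passed in either direction by edgeR (median -0.23). Of the 57, 10 had both free pools above both monosome pools and 24 below, against 27.1% and 29.7% of all genes tested. On library totals 2 of the 57 were higher in monosomes, and 1 was with the gradient as a block. The 2 most abundant of these, ZAR1L and ZAR1, had log2 fold changes of 0.49 ± 0.297 and 0.27 ± 0.371 (edgeR adjusted p = 0.428 and 0.757). None of 12 cumulus and granulosa markers tested passed. SERPINE2 and KRT8, the most abundant of them, were at -1.10 ± 0.495 and -0.74 ± 0.435 (edgeR adjusted p = 0.27 and 0.414). Of the blood and stroma markers, 1 of 4 tested passed. This was HBA, an alpha globin gene, at 227 and 264 CPM in F1, 126 and 74.9 in F2, and 12.3 to 31 CPM (median 21.8) in monosomes, and its part in the other results was not tested.

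The single genes with the largest excess in free RNA, among those with a mean of at least 10 CPM, included several outside these groups. MARK1, a microtubule affinity kinase, had the largest fitted value (8.03 ± 1.33, edgeR adjusted p = 0.0169), with 82 and 617 counts in the free pools and 4 and 2 counts in the monosome pools. The ratio of summed counts was 271 (95% exact interval 124 to 742, counting error only). Most MARK1 counts came from F1 of gradient B, at 67.0 CPM against 9.33 CPM in F1 of gradient A and 0.454 and 0 CPM in F2. C11H9orf16 stood at 121 and 89.2 CPM in F1, 46.8 and 25.9 in F2, and 3.13 to 5.65 CPM (median 4.11) in monosomes. The other 10 of the 12 leading genes were ND3, ATP5F1E, TMEM258, COX6B1, RPL36, ATP8, RPL38, NDUFA3, ATP5MF and RPLP2, all described above.

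The 12 genes with the largest excess in monosomes had no ribosomal or respiratory member. GRIPAP1, a protein of endosomal traffic, stood at 1.08 and 0.652 CPM in F1, 0.227 and 0.557 in F2, and 19.5 to 51.3 CPM (median 34.3) in monosomes (-5.79 ± 0.742, edgeR adjusted p = 0.0119). REXO5, an RNA exonuclease, stood at 0.598 and 0 CPM in F1, 0.567 and 4.73 in F2, and 22.2 to 53.9 CPM (median 32.8) in monosomes. KLHL11, an adaptor of cullin ligases, stood at 0.837 and 0.217 CPM in F1, 1.93 and 1.25 in F2, and 11.4 to 30.7 CPM (median 21.8) in monosomes. In each of them every free library lay below every monosome library. DRAXIN, an axon guidance protein, had 0 CPM in both F1 libraries, 3.40 and 2.92 in F2, and 14.9 to 26.2 CPM (median 18.9) in monosomes. PLAT, the tissue plasminogen activator stored in oocytes, had 0 and 1.09 CPM in F1, 7.37 and 0.417 in F2, and 10.8 to 48.3 CPM (median 25.5) in monosomes. C16H1orf112, RASGEF1B, ZNF304, XPO7, CARMIL3, KIZ and ECD made up the rest, with log2 fold changes between -3.92 and -3.24.

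**Figure D4:**
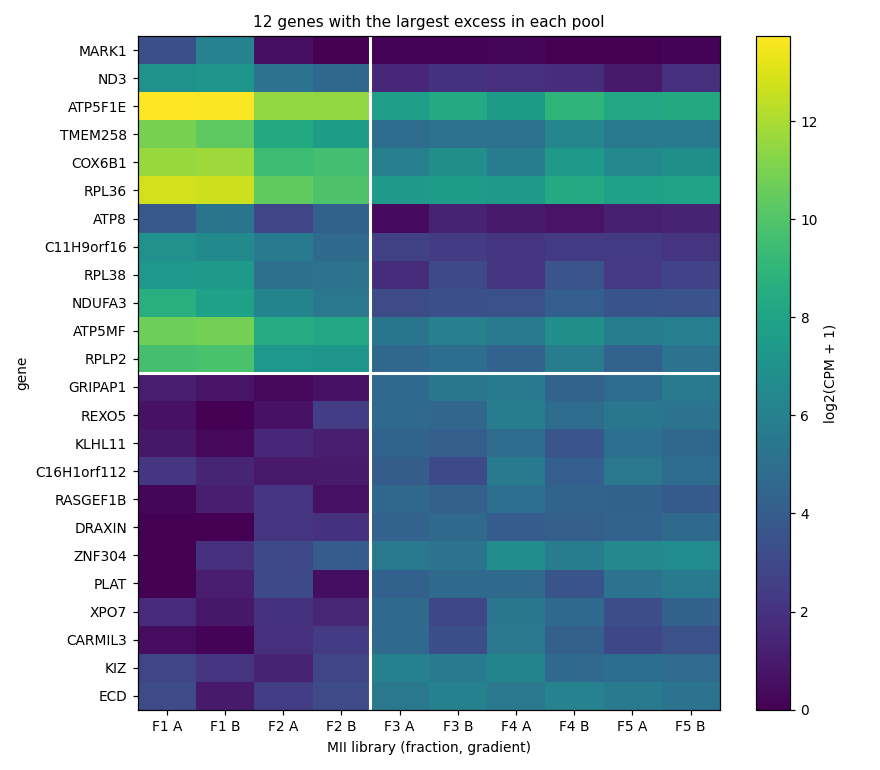
Level of the 12 genes with the largest excess in free RNA (upper rows) and in monosomes (lower rows) in the 10 libraries (columns, fraction and gradient), as log2 of CPM plus 1. ATP5F1E reached 13590 CPM in F1 of gradient A against at most 509 CPM in F3 to F5, and GRIPAP1 stayed at or below 1.08 CPM in F1 and F2.

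The 6 genes with the highest CPM in the free pools were UBB, FTL, ZP3, FTH1, GSTM3 and GAPDH. CPM is not per transcript length, so this order is one of counts and not of molecules. FTL and FTH1, the light and heavy chains of the iron store ferritin, both passed. FTL had 27360 and 36150 CPM in F1, 57250 and 98350 in F2, and 3254 to 18990 CPM (median 8753) in monosomes (2.54 ± 0.465, edgeR adjusted p = 0.0192). FTH1 had 10150 and 10430 CPM in F1, 26410 and 45550 in F2, and 1652 to 9580 CPM (median 4364) in monosomes (2.29 ± 0.471, edgeR adjusted p = 0.0289). UBB, a polyubiquitin gene, had 31310 and 39530 CPM in F1, 109100 and 208800 in F2 and 11980 to 69980 CPM (median 30080) in monosomes, and did not pass (1.52 ± 0.393, edgeR adjusted p = 0.0595). GSTM3, a glutathione transferase, was at 1.59 ± 0.445 (edgeR adjusted p = 0.0768) and ZP3, another zona glycoprotein, at 0.37 ± 0.466 (edgeR adjusted p = 0.737).

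F1 and F2, whose sums chose the 323 genes, were also compared with each other, as shares of each library. The counts for the 323 genes are thus not independent of their choice. Of the 323 genes higher in free RNA, 209 had both F1 libraries above both F2 libraries (64.7%, against 23.6% of all genes tested) and 47 had both F2 libraries above both F1 libraries (14.6%, against 26.5%). ATP5F1E, RPL36 and COX6B1 were among the first, with F1 at 13590 and 12850, 7141 and 6522, and 3105 and 3361 CPM. Ferritin, GAPDH and MOS were among the second. GAPDH stood at 3320 and 3384 CPM in F1, 16320 and 15970 in F2, and 1489 to 4036 CPM in monosomes, so its F1 libraries lay within the range of the monosome libraries. Tested over all 20 MII fraction libraries, no gene was higher in F1 than in F2 (0 of 13257, 0%) and 2 were higher in F2 (0.0151%). At an unadjusted p below 0.05, 555 and 726 genes differed, and DESeq2 called 182 and 321. The 2 genes, named after their values were seen, were PSMA7, a proteasome core subunit (1436 and 1093 CPM in F1, 8613 and 7438 in F2, -2.67 ± 0.363, edgeR adjusted p = 0.024), and AP2M1, a clathrin adaptor (382 and 240 CPM in F1, 1499 and 2058 in F2, -2.52 ± 0.364, edgeR adjusted p = 0.024). Neither differed between pooled free RNA and monosomes, at -0.02 ± 0.286 and 0.13 ± 0.292 (edgeR adjusted p = 0.982 and 0.868). Genes of the mitochondrial genome had a median of 1.03 for F1 minus F2, cytosolic ribosomal proteins 0.43, mitochondrial ribosomal proteins -0.59 and all genes 0.06, and none of these lists had a gene past the threshold.

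Where the free messages stood further down the gradient was read from F6 to F10, which are in neither compared pool. The median CPM of the 323 genes was 347 in free RNA, 64.0 in monosomes, 83.3 in F6 and F7 and 121 in F8 to F10, while the 208 monosome genes stood at 29.7, 141, 79.0 and 52.3. The F8 to F10 medians and the polysome pools below include the outlying F10 of gradient B. On a relative scale, the median level of the 323 genes was 1.5 in that library. It was 0.622 in F10 of gradient A and 0.521 to 0.732 in F8 and F9. For the 208 genes these values were 0.168, 0.563 and 0.539 to 0.857. How far the 121 and 52.3 rest on that library was not tested. The mean of F8 and F9 lay above that of F6 and F7 for 211 of the 323 genes (65.3%) and 49 of the 208 (23.6%), against 49.2% of all genes tested. F10 was left out of this count because of the outlying library. The choice of the 323 for high free pools lowers the next count by itself, so its share is no separate result. In 11 of the 323 genes (3.41%, against 25.5% of all genes) both polysome pools also lay above both free pools. These were PTTG1, TESC, TOMM6, TOMM7, MRPS16, SNRPD3, OOSP2, CA9, PCNA, CSTB and CETN3, which a rule on values chose. PTTG1, the securin that anaphase destroys, stood at 829 and 927 CPM in the free pools, 242 and 231 in the monosome pools, 774 and 1081 in F6 and F7, and 3476 and 2773 in the polysome pools. OOSP2, a secreted oocyte protein, stood at 94.4 and 145 CPM in the free pools, 37.6 and 41.6 in the monosome pools, and 286 and 347 in the polysome pools. The rule that chose these genes puts their CPM lowest in the monosome pools and highest in the polysome pools, so this order is no separate result. As CPM is a share of each library, it does not give where most of their RNA lay.

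Whole oocytes and embryos were sequenced apart, in 3 replicates per stage. The median level of the 323 free genes was 94.4 CPM in GV oocytes, 60.3 CPM in MII oocytes and 34.0 CPM in 2-cell embryos, and that of the 208 monosome genes was 70.3, 56.6 and 80.3 CPM. In 196 of the 323 genes all 3 libraries of 2-cell embryos lay below all 3 of MII oocytes (60.7%, against 22.3% of all genes tested), and in 31 they lay above (9.60%, against 30.5%). Of the 208 genes, 22 lay below (10.6%) and 112 above (53.8%). The median log2 change from MII to 2-cell was -0.80 for the free genes, 0.45 for the monosome genes and 0.08 for all genes. Levels in whole oocytes and in fractions were scaled apart and did not always match. In whole MII oocytes ATP5F1E (131.5 CPM) and RPL36 (92.2 CPM) lay below all their MII fraction libraries. ND3 (49.3 CPM) lay within the range of its fractions and ATP8 (57.1 CPM) above it. The cause was not tested.

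The same contrast in GV oocytes, with its own 2 gradients, called 1007 genes for free RNA (7.46%) and 1221 for monosomes (9.05%) of 13492. Of the 323 MII genes, 230 were called in the same direction there (71.2% of the MII list and 22.8% of the GV list), and 101 of the 208 monosome genes (48.6% and 8.27%). Cytosolic ribosomal proteins had a median of 1.95 and 55 genes in free RNA in GV oocytes, nuclear oxidative phosphorylation genes 1.64 and 42, and genes of the mitochondrial genome 1.55 and 3. In 2-cell embryos edgeR called 0 genes in both directions of 13306 (0%), with 1141 and 803 at an unadjusted p below 0.05 and 646 and 263 by DESeq2. There 318 of the 323 genes had a positive log2 fold change with a median of 1.84, and 200 of 207 monosome genes a negative one with a median of -1.11. In 8-cell embryos edgeR also called 0 in both directions (0%), with 395 and 659 at an unadjusted p below 0.05 and 196 and 386 by DESeq2. The medians of the MII lists there were 1.15 and -0.18, with 299 of 320 free genes positive and 114 of 206 monosome genes negative. Of all genes, edgeR called 0 in both directions in morulae (0%, with 201 and 309 at an unadjusted p below 0.05 and 46 and 52 by DESeq2), and 1 (0.00852%) and 4 (0.0341%) in blastocysts, with 684 and 844 at an unadjusted p below 0.05 and 313 and 381 by DESeq2. In these stages the free genes had medians of 0.50 and 0.29 and the monosome genes 0.08 and 0.07. Spearman's rho of the log2 fold changes with those of MII oocytes, across 10975 to 13027 genes that are not independent of each other, was 0.47 for GV and 0.499 for 2-cell. It was 0.174 for 8-cell, 0.0723 for morula and 0.0294 for blastocyst gradients.

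**Figure D5:**
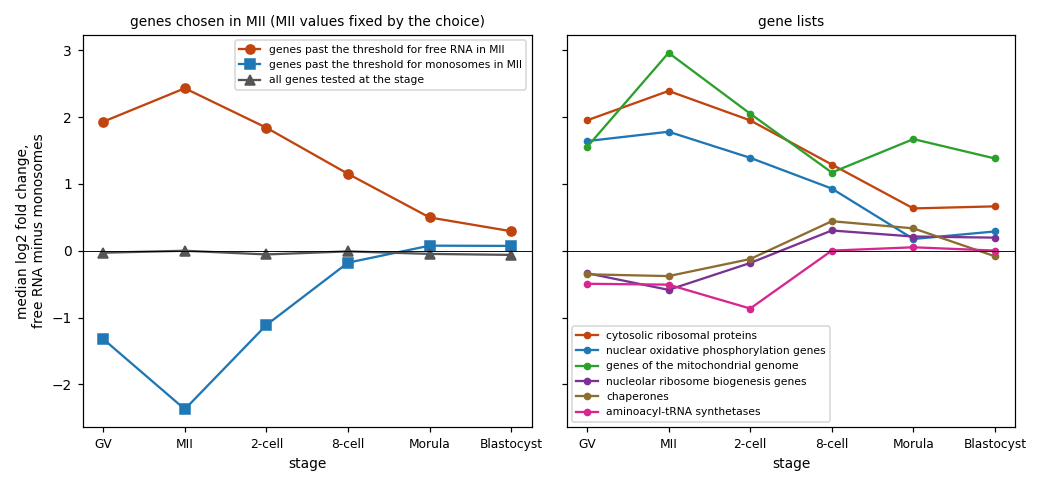
Median log2 fold change of free RNA over monosomes (y axis) at 6 stages (x axis), for the genes past the threshold in MII oocytes and all genes (left) and for 6 gene lists (right). The free genes stand at 1.93 in GV oocytes and 0.29 in blastocysts, and the MII points of the left panel are fixed by the choice of genes.

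Whether the free to monosome ratio itself differed between stages was tested as an interaction over the 16 pools of both stages. Between MII and GV oocytes 17 genes had a higher ratio in MII (0.121% of 14002) and 1 a lower ratio (0.00714%), and none of the cytosolic ribosomal, nuclear oxidative phosphorylation or mitochondrial genome lists had a member among them. Against 2-cell embryos edgeR called 0 genes in both directions (0%), with 191 and 384 at an unadjusted p below 0.05 and 3 and 1 by DESeq2. Against 8-cell embryos 2 were higher (0.0142%) and 1 lower (0.00708%). CNN3, an actin-binding calponin, stood at 105 and 126 CPM in the free pools and 43.2 and 38.8 CPM in the monosome pools of MII oocytes, and at 150 and 85.3 CPM and 416 and 678 CPM in those of GV oocytes. MRPS21, of the mitochondrial ribosome, stood at 115 and 157 CPM against 37.6 and 43.7 CPM in MII oocytes, and at 7.82 and 8.26 CPM against 20.1 and 27.7 CPM in GV oocytes. GPAT2, an acyltransferase of the germline, went the other way, at 12.6 and 9.06 CPM against 44.9 and 46.0 CPM in MII oocytes and 252 and 304 CPM against 153 and 138 CPM in GV oocytes.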

How the data were processed

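The authors sequenced RNA of each gradient fraction with a Smart-seq kit, which primes on poly(A) tails, so RNA with short or no tails is read less. They deposited 1 table of estimated counts for 16706 gene symbols in 138 libraries, not normalized. The submitters' processing notes name Salmon, edgeR and the build UMD3.1, while the study's methods name a later assembly, so no coordinate or sequence is given. All columns matched a sample title (0 unmapped), and 11.7% of the values were not whole and were rounded.

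Counts of F1 and F2, F3 to F5, F6 and F7, and F8 to F10 were summed per gradient, giving 8 MII pools. After filterByExpr (13369 genes), edgeR 4.0.16 in R 4.3.3 with TMM factors fitted a quasi-likelihood model with 4 residual degrees of freedom. Calls needed an adjusted p below 0.05 (Benjamini-Hochberg) and a fold above 2. F1 and F2 were compared over 20 fraction libraries, and stages by an interaction over 16 pools. Levels in single fractions were scaled over those 20 libraries. DESeq2 1.42.0 and other settings were alternatives. The fits were tested on simulated data. Gradient letters pair the pools by lysate, and across 13369 genes the A minus B differences correlated at r = 0.133 for free with monosome pools, -0.14 for free with F6 and F7, 0.0823 for free with polysomes, 0.078 for monosomes with F6 and F7 and 0.16 for monosomes with polysomes.

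Named genes were the 12 with the largest change in each direction (called, pools not overlapping, mean of at least 10 CPM, with a gene symbol), up to 4 called members per list or else the 2 most abundant, the 6 highest in the free pools, and up to 5 per direction for F1 against F2 and MII against GV. Some genes that meet these rules are not reported here. Further genes are named where counts are small or as examples chosen after their values were seen. The members and the 35 lists were chosen with earlier results of these data known. The list of non-coding RNA genes had 0 genes in the table. Intervals (95%) and floors (3 counts, at most 0.344 CPM) cover counting error only, and the shares of 4 lists had Wilson half-widths of at most 0.0159 percentage points. A planned comparison of sequence features was not made, as no matching sequence table was used here.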

Additional observations from a re-analysis of the deposited data

Results flagged for a closer look

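Differences between stages in the free to monosome ratio were singled out where an interaction test gave an adjusted p below 0.05 (edgeR quasi-likelihood test, 2 gradients per stage). Between MII and GV oocytes 17 genes had a higher ratio in MII and 1 a lower ratio. By the size of the log2 difference, MII minus GV, the leading ones with a mean of at least 10 CPM were TIPIN, a replication fork protein, at 3.94 ± 0.616 (edgeR adjusted p = 0.0223), CNEP1R1, a regulator of a lipid phosphatase, at 3.76 ± 0.657 (edgeR adjusted p = 0.0328), CNN3 at 3.71 ± 0.519 (edgeR adjusted p = 0.0223), TMEM128 at 3.69 ± 0.613 (edgeR adjusted p = 0.0266) and MRPS21 at 3.31 ± 0.547 (edgeR adjusted p = 0.0266). GPAT2, the 1 gene with a lower ratio, was at -3 ± 0.454 (edgeR adjusted p = 0.0223).

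Between MII oocytes and 8-cell embryos 2 genes had a higher ratio in MII and 1 a lower ratio. SERPINH1, a collagen chaperone, differed by 10.7 ± 1.52 (edgeR adjusted p = 0.0323). In 8-cell embryos it stood at 0 and 0.0529 CPM in the free pools and 19.6 and 5.22 CPM in the monosome pools, so the fitted value depends on the prior count and is no bound. ACAD9, a complex I assembly factor, differed by 6.67 ± 0.967 (edgeR adjusted p = 0.0323), with 0.155 and 0.317 CPM in the free pools of 8-cell embryos and 55.4 and 36.3 CPM in those of MII oocytes. The free levels of ACAD9 in 8-cell embryos are low, so the size of the difference is uncertain, and its monosome levels are not reported here. TPM3 differed by -3.39 ± 0.462 (edgeR adjusted p = 0.0323), with 281 and 456 CPM free and 2760 and 2310 CPM in monosomes of MII oocytes, against 1040 and 1070 CPM and 649 and 736 CPM in 8-cell embryos. All 3 calls were lost with a replicate block.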

How the results depend on the processing

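For free RNA against monosomes (323 and 208 genes), the counts higher in free RNA and in monosomes were 777 and 803 with DESeq2, 624 and 579 with edgeR's likelihood ratio test, 594 and 505 with the 4 pools alone, 549 and 705 with F2 alone as free RNA, 334 and 324 with F1 alone, 510 and 297 with the 20 fraction libraries as 10 groups, 508 and 319 with a replicate block, 218 and 532 without TMM, 437 and 346 without a filter and 471 and 367 with a filter at 5 CPM. With 1 pool or library left out they ranged from 0 to 449 and from 0 to 332. The highest counts were those without F10 of gradient B, an alternative chosen after seeing the data. Leaving out F1 of gradient B gave 170 genes higher in free RNA, and leaving out F2 of gradient A gave 204 and 122, and F2 of gradient B 128 higher in monosomes. The cause of these moves was not tested. The other alternatives, thinning, F4 and F5 as monosomes and no fold threshold, gave 293 to 349 and 176 to 260. Of the named genes, AP2M1 turned to -1.56 with F1 alone as free RNA and TRIM28 to -0.151 with F2 alone. Medians of 8 lists (RNA decay, histone and DNA methylation enzymes, translation factors, spliceosome, RNA polymerase II, RAB, ubiquitin ligases and cytoskeleton) turned from above to below 0 without TMM.

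For F1 against F2 (0 and 2), DESeq2 gave 182 and 321, the replicate block 2 and 11, no filter 8 higher in F2, no TMM 1, and leaving out 1 library 0 in both directions by edgeR. For MII against GV (17 and 1), DESeq2 gave 218 and 110, no filter 65 and 3, the replicate block 13 and 1, and leaving out 1 pool 0 to 38 and 0 to 6. The highest were without MII free pool A (38 and 6) and GV free pool B (26 and 4), and edgeR called 0 in both directions without either MII monosome pool or GV monosome pool B. For MII against 2-cell (0 and 0), DESeq2 gave 3 and 1, and leaving out 1 pool 0 to 0. For MII against 8-cell (2 and 1), DESeq2 gave 323 and 230, the replicate block 0 and 0, no TMM 1 and 2, no filter 4 higher, and leaving out 1 pool 0 to 81 and 0 to 8, the highest without 8-cell free pool B. The lone pool of a stage was taken to vary like the others.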

Other observations

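Of the genes past the threshold, 167 of the 323 in free RNA and 148 of the 208 in monosomes belonged to none of the lists, although H4, H2B, H3C13, ATP5MD and COX7A1 among the 167 are histone or respiratory genes that the lists missed, and the examples here were chosen after their values were seen. In free RNA, LGALS1, a galactose-binding lectin, stood at 1092 and 1226 CPM in F1, 324 and 421 in F2, and 43.1 to 117 CPM (median 71.6) in the 6 monosome libraries (3.46 ± 0.539, edgeR adjusted p = 0.0131). ROMO1, a small protein of the mitochondrial inner membrane, stood at 3851 and 3348 CPM in F1, 850 and 829 in F2, and 147 to 444 CPM (median 238) in monosomes. FABP3, a carrier of fatty acids, was about equally high in both free fractions, with 5362 and 3779 CPM in F1, 4167 and 3760 in F2, and 469 to 1002 CPM (median 869) in monosomes. GTSF1, a germline factor of the piRNA pathway, had 886 and 1539 CPM in F1, 1444 and 2623 in F2, and 78.4 to 436 CPM (median 198) in monosomes. No library of these 4 genes overlapped between the pools.

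In monosomes, GOT2, the mitochondrial aspartate aminotransferase, stood at 229 and 205 CPM in F1, 315 and 294 in F2, and 1389 to 2195 CPM (median 2018) in monosomes (-2.81 ± 0.426, edgeR adjusted p = 0.0128). GDI2, which recycles RAB proteins, had 403 and 646 CPM in F1, 1119 and 843 in F2, and 2355 to 5868 CPM (median 4220) in monosomes. STIP1, a co-chaperone that joins HSP70 to HSP90, had 41.5 and 209 CPM in F1, 179 and 207 in F2, and 450 to 1202 CPM (median 871) in monosomes. PRMT5, an arginine methyltransferase, had 153 and 98.7 CPM in F1, 167 and 154 in F2, and 605 to 867 CPM (median 682) in monosomes. All free libraries of these 4 genes lay below all 6 monosome libraries.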
